A study of Saccharomyces cerevisiae with 160 samples.

Results

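The genes described here encode the subunits of the proteasome of budding yeast, *Saccharomyces cerevisiae*. They were chosen by name alone, as the probe sets whose gene symbol is *RPN*, *RPT*, *PRE* or *PUP* followed by digits, or *SCL1*. The rule took 33 genes besides *RPN4*, which encodes the transcription factor of the family and is reported apart, out of 5716 probe sets for yeast genes. Of the 33, 7 encode the alpha rings of the catalytic core, 7 its beta rings, 9 the base of the regulatory particle and 8 its lid. The other 2 are *RPN10*, a ubiquitin receptor of the regulatory particle, and *RPN14*, which the rule takes by its name although it encodes an assembly chaperone of the base and not a subunit.

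The 26S proteasome degrades proteins that carry ubiquitin chains, among them cyclins and securin after the anaphase promoting complex has marked them. Its barrel-shaped core holds the proteases, and the regulatory particle at its ends binds, unfolds and de-ubiquitinates the substrate. In budding yeast Rpn4 binds an element shared by the promoters of most proteasome genes and is itself a short-lived substrate of the proteasome, a feedback that raises subunit transcription when degradation lags. Its own gene is a target of the stress regulators Hsf1, Yap1, Pdr1 and Pdr3.

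All 5 strains are *MATa* derivatives of a single parent, BF264-15DU, and every culture began from G1 cells collected by elutriation, in medium with sorbitol at 30 °C where the labels give it. The *rad53-1 cdc8 cdc20* strain (2 cultures of 20 arrays, 18 to 360 min) carries a temperature-sensitive *cdc8* allele, which stalls DNA replication, a checkpoint kinase allele, a disrupted *cdc20* and *CDC20* under the GALL promoter, which dextrose shuts off. The *cdc8 cdc20* strain (1 culture of 20 arrays, 18 to 360 min) has the same alleles with normal *RAD53*. For both strains the medium is not given in the labels. The *cse4-353* strain (2 cultures of 18 arrays, 90 to 345 min) overexpresses a centromeric histone allele from the GAL promoter in galactose, which engages the spindle checkpoint. The *cdc8* strain (2 cultures of 16 arrays, 30 to 260 min, in dextrose) carries only the temperature-sensitive allele. The *cdc20* strain (2 cultures of 14 and 18 arrays, 40 to 300 min and 20 to 360 min, in dextrose) has the disrupted *cdc20* and the GALL-driven copy, so that cells stop in metaphase. All strains but *cdc8* lack functional *BAR1*, and all but *cdc8* carry a CFP-tagged tubulin gene. Galactose and overexpression cannot be told apart from the *cse4-353* allele. The description of the last array of the second *cse4-353* culture names another arrest, and its title and genotype were followed.

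The 160 arrays had median intensities between 1020 and 1284, and no pair of columns was identical. Array values are probe set intensities, in arbitrary units, so that intensities of different genes are not compared as levels. They give a transcript's share of the RNA of a whole culture, in which a change in all cells and a larger change in some of them cannot be told apart. The culture was the replicate, and limma's p-values measure the spread between cultures, with an estimate for each probe set that all strains share. With 9 cultures in all, and *cdc8 cdc20* assumed to vary like the other strains, the number of cultures limits the precision. Of the transcripts that mark the strains, *CSE4*, *GAL1* and *BAR1* lay as labelled. *CSE4* averaged 14.30 on the log2 scale in *cse4-353* cells and 8.09 to 8.80 in the other strains. *GAL1* averaged 14.46 in *cse4-353* cells and 8.21 to 10.11 in the others, and *BAR1* 11.39 in *cdc8* cells and 6.49 to 7.10 in the others. *CDC20* did not show its shut-off as a lower mean over the course. It averaged 9.21 in *rad53-1 cdc8 cdc20*, 9.16 in *cdc8 cdc20* and 8.95 in *cdc20* cells, against 8.66 in *cse4-353* and 8.17 in *cdc8* cells. The *rad53-1* and *cdc8* alleles leave no mark on transcript levels that could be checked. In *cse4-353* replicate 1 the arrays at 150, 180 and 270 min stood apart from their neighbours in time.

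After an early low, the proteasome genes were higher later in each of the 9 cultures, and they did so together. Levels on the log2 scale are log2(intensity + 1). The median over the 33 genes in *rad53-1 cdc8 cdc20* cells was lowest at 54 min in both cultures (11.74 and 11.90) and highest at 216 min in the first culture (12.97) and, slightly above that, at 234 min in the second. In *cdc8 cdc20* cells it was lowest at 54 min (11.61) and highest at 198 min (12.63). In *cse4-353* cells it was lowest at the first array, at 90 min (11.48 and 11.43), and highest at 270 min (12.57) and 345 min (12.35). The array at 270 min of replicate 1 is among those that stood apart from their neighbours.

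The *cdc8* cultures had their lowest medians at 80 min (11.64 and 11.67) and their highest at 180 min (12.46) and 200 min (12.41). The *cdc20* cultures had their highest medians at 40 min (12.78 and 12.65), the first array of replicate 1 and the second of replicate 2. Their lowest values came at 60 min (11.57) and 80 min (11.32), with later values of up to 12.32 and 12.36. The early drop spanned all 33 genes, whose level at 40 min was a median 2.14-fold above that at 60 min in the first culture and 2.47-fold above that at 80 min in the second. Over all probe sets those ratios had medians of 1.02 and 0.995. The 12 heat shock genes moved with it, with medians of 2.02-fold and 3.06-fold, and their part in it was not tested. An early high was also present in *cdc8* cells, where all 33 genes were higher at 30 min than at 80 min, with medians of 1.45-fold and 1.73-fold, beside 1.62-fold and 2.44-fold for the heat shock genes. In the second *cdc8* culture the median at 30 min (12.40) was about as high as the later one. From 18 to 54 min the drop was smaller in *cdc8 cdc20* cells (32 of 33 genes, median 1.18-fold). It was smaller still in *rad53-1 cdc8 cdc20* cells (19 and 29 genes, medians of 1.01-fold and 1.11-fold). Over all probe sets the medians in these cultures were 0.97 to 0.99. The *cse4-353* cultures were not sampled before 90 min.

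**Figure D1:**
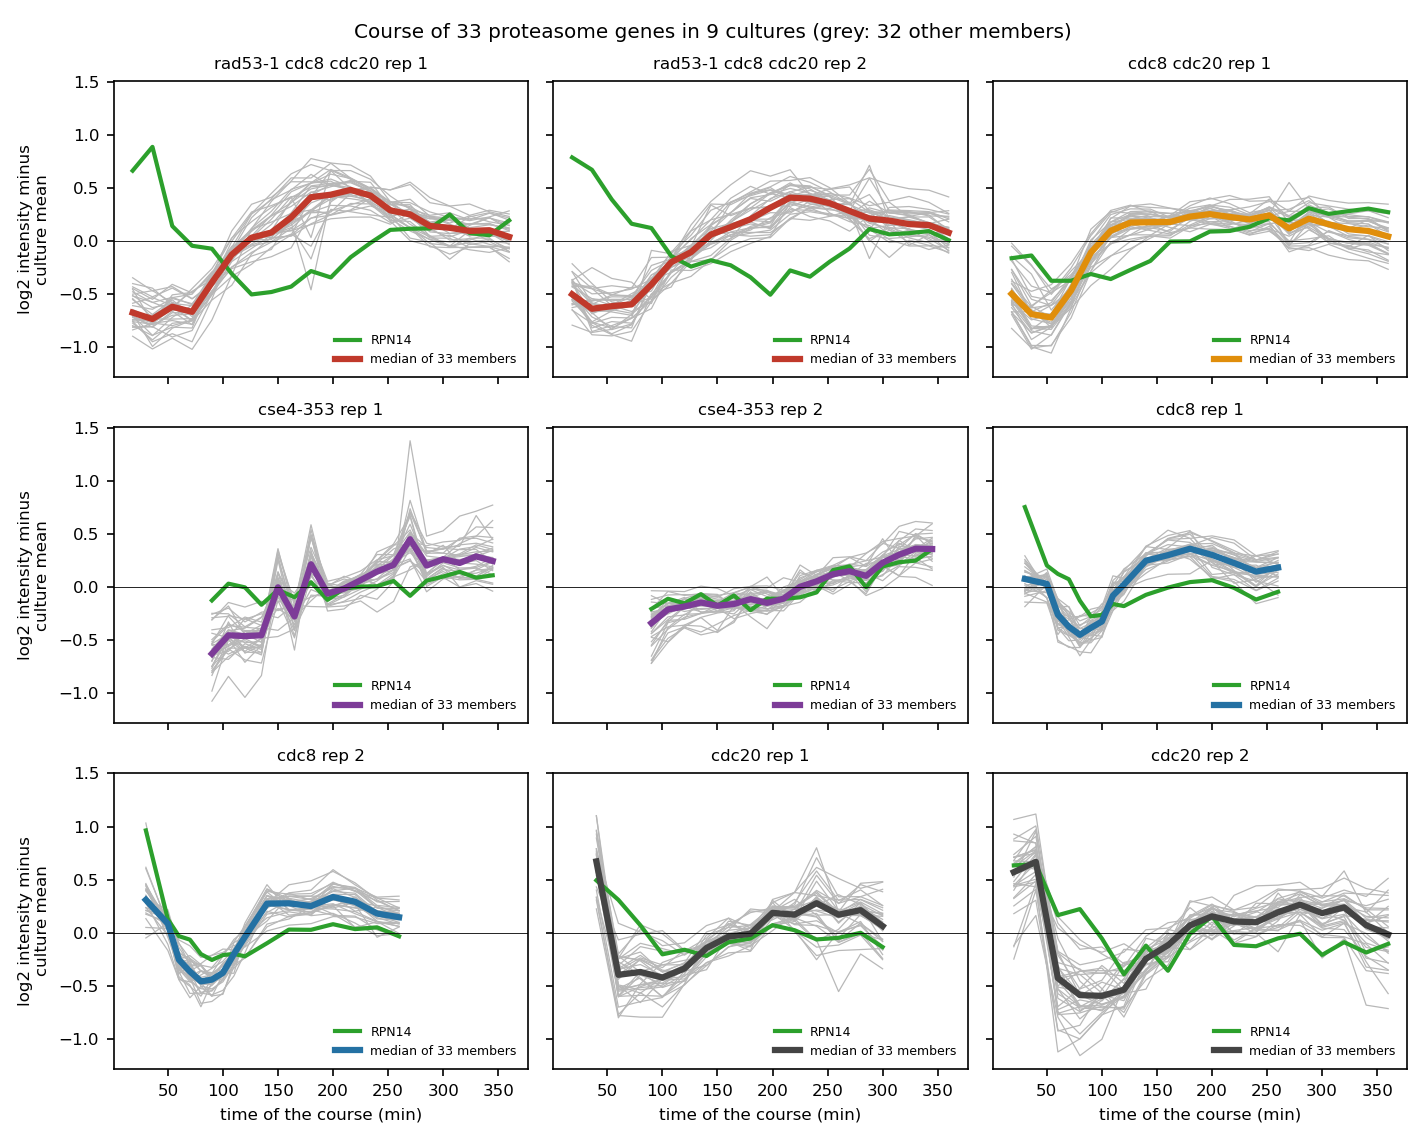
Log2 intensity of each proteasome gene minus its own mean in the culture (vertical axis) against time in min (horizontal axis), in 9 panels for the 9 cultures. Grey lines are 32 genes, the green line is *RPN14* and the thick line is the median of all 33. The grey lines run together in every panel, and *RPN14* runs against them in the *rad53-1 cdc8 cdc20* cultures, where its correlation with the other genes was -0.55 and -0.75.

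From its lowest value to its highest later value, the typical gene spanned 2.47-fold and 2.21-fold in the *rad53-1 cdc8 cdc20* cultures and 2.07-fold in the *cdc8 cdc20* culture. The spans were 2.18-fold and 1.68-fold in *cse4-353* cells, 1.80-fold and 1.76-fold in *cdc8* cells, and 1.75-fold and 1.95-fold in *cdc20* cells. These are medians over the 33 genes without a test, since the points of highest and lowest value were picked from the course. By the last array the typical gene was at 74.5% and 76.6% of its highest later value in *rad53-1 cdc8 cdc20* cells, at 84.0% in *cdc8 cdc20* cells and at 86.6% and 99.5% in *cse4-353* cells. The *cdc8* cultures stood at 88.1% and 86.0%, and those of *cdc20* at 84.0% and 81.8%, in courses that ended at different times (260 min in *cdc8* and 360 min in *rad53-1 cdc8 cdc20*), so that these shares are not ranked. In *cse4-353* replicate 2 the genes were near their height when sampling ended.

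*RPN4*, whose product activates these genes, went through a high, transient peak in *rad53-1 cdc8 cdc20* cells. Its intensity was 2512 and 3331 at 54 min, 15067 (replicate 1, 162 min) and 14625 (replicate 2, 180 min) at its height, and 3823 and 4730 at 360 min. The *cdc8 cdc20* culture, which has normal *RAD53*, never exceeded 3621 after 36 min, and its highest intensity (4623) was that of its first array. The peak was thus in both cultures with the *rad53-1* allele and in no array of the culture without it.

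In *cse4-353* cells *RPN4* was highest late, with a lowest intensity of 2950 (120 min) and a highest of 8189 (270 min) in replicate 1. In replicate 2 these were 3524 (165 min) and 8490 (330 min). It stayed between 2339 and 3569 in *cdc8* replicate 1 and between 2709 and 4704 in *cdc8* replicate 2, each with its highest value at 30 min. In *cdc20* cells the first arrays were the highest, at 4425 (40 min) in replicate 1 and 10155 (20 min) in replicate 2, and the last were the lowest, at 2539 (300 min) and 1977 (360 min).

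**Figure D2:**
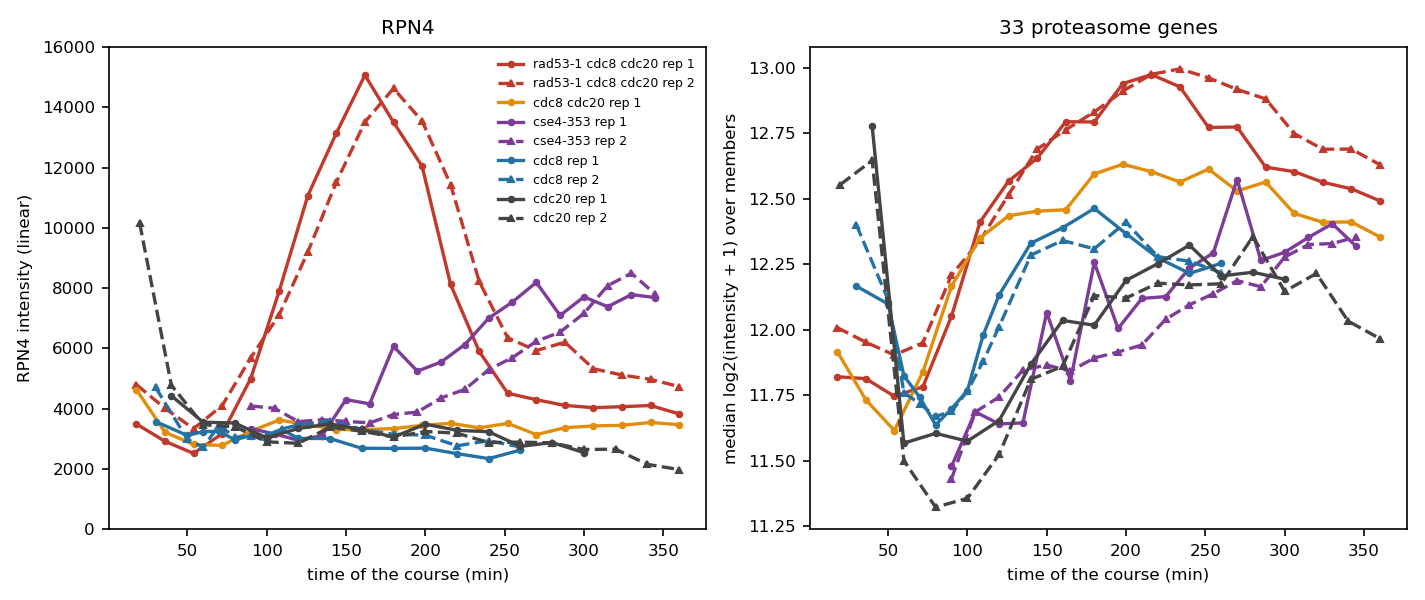
Intensity of *RPN4* on a linear scale (left) and the median log2(intensity + 1) of the 33 proteasome genes (right), both against time in min, with 1 line per culture, solid for replicate 1 and dashed for replicate 2. *RPN4* reached 15067 and 14625 in the *rad53-1 cdc8 cdc20* cultures (red), and the median of the proteasome genes was highest there 54 min later in both. The lag was shorter when read from the median time of the single genes' highest values.

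In the *rad53-1 cdc8 cdc20* cultures the median of the proteasome genes was highest 54 min after *RPN4*, which is 3 arrays. This lag depends on the summary used. Single genes had their highest value at a median of 198 min in replicate 1 and 216 min in replicate 2. *RPN4* was highest at 162 and 180 min. The mean of the 33 genes, each centred on its own mean, was highest at 216 min in both cultures. In replicate 2 it was 0.387 at 216 min and 0.376 at 234 min. Pearson's correlation over time between *RPN4* and the mean of the 33 genes was 0.61 and 0.60 for values of the same array, 0.82 and 0.79 when the genes were read 2 arrays later and 0.81 and 0.81 at 3 arrays. In *cse4-353* cells it was 0.96 and 0.94 at the same array and 0.70 and 0.91 at 3 arrays. In *cdc8 cdc20* cells it was 0.23 at the same array and -0.56 at 3 arrays. In *cdc8* cells it was -0.52 and 0.21 at the same array and -0.53 and 0.04 at 3 arrays. In *cdc20* cells it was 0.20 and 0.38 at the same array and -0.70 and -0.69 at 3 arrays, over courses of 14 to 20 arrays. The points of each correlation are arrays of a single culture and share its drift, so that no p-value is given. Those of *cse4-353* replicate 1 include its arrays at 150, 180 and 270 min, which stood apart from their neighbours. There the proteasome genes lay a median 0.36, 0.42 and 0.23 above the neighbouring arrays on the log2 scale. In the *cdc8 cdc20*, *cdc8* and *cdc20* cultures *RPN4* was highest at the first array, before the later rise of the proteasome genes. During that rise *RPN4* went from 2778 (72 min) to 3621 (108 min) in *cdc8 cdc20* cells. From 80 to 140 min it went from 3049 to 3589 in *cdc8* replicate 2 and from 2962 to 3004 in replicate 1. In *cdc20* cells it went from 3549 (60 min) to 3230 (240 min) in replicate 1 and from 3401 (80 min) to 2862 (280 min) in replicate 2. The part of *RPN4* in the rise was not tested.

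How far the genes had moved by the arrest was measured as the mean log2 level of an arrest window minus that of an early window in the same culture. The arrest windows ran from 198 to 270 min in the *rad53-1 cdc8 cdc20* and *cdc8 cdc20* cultures, from 255 to 330 min in *cse4-353*, from 180 to 260 min in *cdc8* and from 200 to 280 min in *cdc20*. The early window ran from 36 to 80 min, and from 90 to 120 min in *cse4-353*. Changes were tested with limma in a fit of all 9 cultures, two-sided, with Benjamini-Hochberg adjustment over the 5716 probe sets and a threshold of 0.05. Below, counts of genes that rose or fell are of genes called by this test. Whatever the call, the change was positive for 32 of 33 genes in *rad53-1 cdc8 cdc20* and 33 in *cdc8 cdc20* cells. It was positive for 33 in *cse4-353*, 32 in *cdc8* and 26 in *cdc20* cells. Window intensities given below are geometric means.

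Between the early and the arrest window in *rad53-1 cdc8 cdc20* cells, 32 of 33 proteasome genes rose and *RPN14* fell, with a median change of 1.01 on the log2 scale. Over all probe sets 26.3% were called higher and 32% lower, with a median of -0.05. *RPT2*, an ATPase of the base, rose most, with arrest intensities of 5470 and 5882, against early intensities of 1911 and 2244, a change of 1.45 (SE 0.12, adjusted p = 7.64e-05, limma). Next came the base ATPase gene *RPT3* (1.38, SE 0.08), the lid gene *RPN12* (1.27, SE 0.07) and *RPN10* (1.24, SE 0.17). *RPN4* itself rose by 1.18 (SE 0.11, adjusted p = 0.000115, limma), to 6450 and 8629 in the arrest window, against 2851 and 3797 early.

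*RPN14* was the exception, with arrest intensities of 578 and 522 in *rad53-1 cdc8 cdc20* cells, against 756 and 839 early. It fell by 0.54 (SE 0.10, adjusted p = 0.00277, limma), a call that was lost without replicate 2 (-0.39). With each culture left out in turn, 32 genes rose.

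In *cdc8 cdc20* cells all 33 genes rose, *RPN14* among them, against 23.6% of all probe sets called higher and 29.7% called lower. The median change was 0.85, beside -0.10 over all probe sets. *RPT2* again rose most, with an arrest intensity of 4458 and an early one of 1855, a change of 1.26 (SE 0.18, adjusted p = 0.000872, limma). The core gene *PRE1*, a beta subunit, rose by 1.17 (SE 0.11), *RPN10* by 1.16 (SE 0.25) and the beta subunit gene *PUP3* by 1.11 (SE 0.10). *RPN4* stood at 3389 in the arrest window and at 2928 early, a change of 0.21 that did not pass the test (SE 0.16, adjusted p = 0.29, limma). This is 1 culture, whose spread was taken from the other strains. With the first 2 arrays as the early window, 14 genes passed as higher. Of all 5716 probe sets 537 were then called higher and 564 lower.

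In *cse4-353* cells 32 of 33 genes rose, with a median of 0.67 beside -0.04 over all probe sets, of which 29.2% were called higher and 33.3% lower. *RPN10* led, with arrest intensities of 2653 and 1991, against 862 and 1178 early, a change of 1.19 (SE 0.17, adjusted p = 0.000776, limma). The lid gene *RPN12* rose by 0.96 (SE 0.07), and the beta subunit genes *PUP1* and *PRE4* by 0.88 each (SE 0.10 and 0.07). *RPN14* did not pass (0.21, adjusted p = 0.103, limma). *RPN4* rose by 1.06 (SE 0.11, adjusted p = 0.000182, limma), with 7607 and 6962 at the arrest, against 3143 and 3880 early. Replicate 1 moved more than replicate 2, with median changes of 0.76 and 0.47 over the 33 genes, and 32 genes passed with its 270-min array left out.

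In *cdc8* cells 29 of 33 genes rose and none fell, with a median of 0.47 beside -0.00 over all probe sets, of which 28.8% were called higher and 29.4% lower. *RPT2* led again (0.79, SE 0.12, adjusted p = 0.00112, limma), with arrest intensities of 3286 and 3367, against 1865 and 1986 early. The lid gene *RPN6* rose by 0.75 (SE 0.08), *PRE1* by 0.74 (SE 0.08) and *PUP3* by 0.71 (SE 0.07). *RPN10* (0.46), *RPN1* (0.29) and *RPN13* (0.27), of which the last is a ubiquitin receptor, did not pass, nor did *RPN14* (-0.00). *RPN4* did not pass either, at 2563 and 2932 in the arrest window and 3135 and 3036 early (-0.17, SE 0.11, adjusted p = 0.225, limma). Without replicate 1 the count was 16 and without replicate 2 it was 18, and with the first 2 arrays as the early window 0 genes rose and 1 fell.

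In *cdc20* cells 17 of 33 genes rose and *RPN14* fell, with a median of 0.24 beside 0.00 over all probe sets, of which 31.6% were called higher and 31.2% lower. *RPN2*, a scaffold of the base, rose by 0.89 (SE 0.11, adjusted p = 0.00027, limma), with 5241 and 5796 at the arrest, against 2948 and 2993 early. *RPN10* rose by 0.82 (SE 0.17), the alpha subunit gene *PRE8* by 0.75 (SE 0.08) and *PUP3* by 0.72 (SE 0.07). *RPN14* had arrest intensities of 644 and 645, against 790 and 837 early, and fell by 0.33 (SE 0.10, adjusted p = 0.0208, limma). *RPN4* fell by 0.32 (SE 0.11, adjusted p = 0.0365, limma), with 3110 and 3004 at the arrest, against 3809 and 3831 early.

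The early window of *cdc20* cells holds the array at 40 min, where the genes were at their highest. Without arrays before 54 min, an alternative chosen after seeing the data, 28 genes rose and 0 fell with a median of 0.61. Of all 5716 probe sets 2015 were then called higher and 1754 lower, with a median of 0.04. Neither *RPN14* (-0.21) nor *RPN4* (-0.19) passed. With the first 2 arrays as the early window, 2 rose and 5 fell, beside 1166 and 1214 of all probe sets. Without replicate 1 the count was 11 higher and without replicate 2 it was 7, and the calls of *RPN14* and *RPN4* were lost without either (-0.37 and -0.29 for *RPN14*, -0.35 and -0.29 for *RPN4*). *RPN10* lost its call without replicate 2 (0.78), and *RPN4* also without either *rad53-1 cdc8 cdc20* culture (-0.32).

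**Figure D3:**
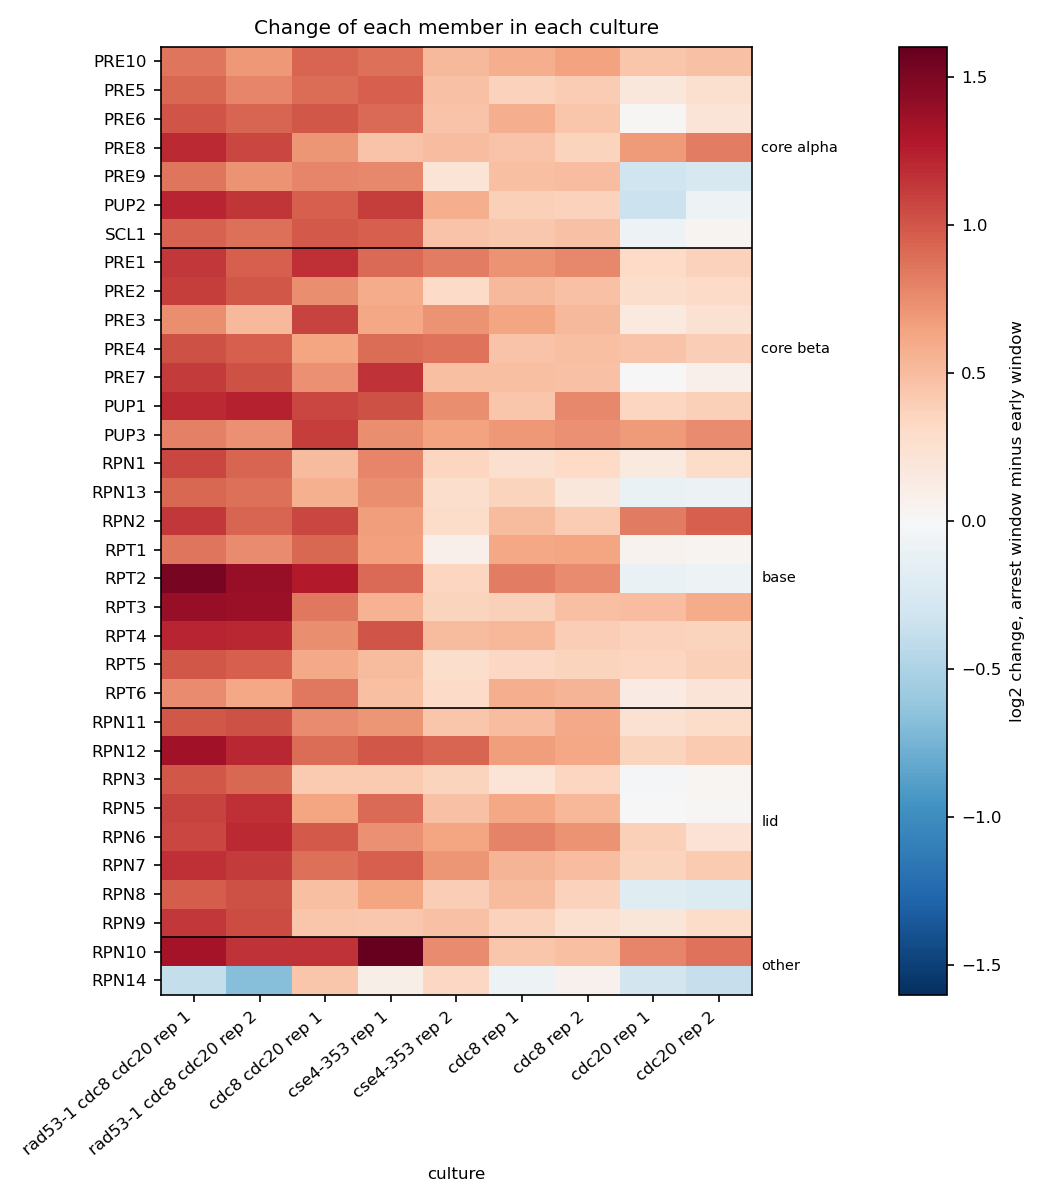
Change from the early to the arrest window on the log2 scale (colour, red higher and blue lower at the arrest) of each of the 33 genes (rows, by place in the proteasome) in each of the 9 cultures (columns). The columns of *rad53-1 cdc8 cdc20* are the reddest, with medians of 1.07 and 0.96, the *cdc20* columns are palest with 0.19 and 0.29, and *RPN14* is blue in the columns of both strains.

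Of the 33 genes, 16 were called higher at the arrest in all 5 strains and 14 in 4 strains. In single strains 23.6% to 31.6% of all probe sets were called higher, and their overlap between strains was not counted. *RPN1*, a scaffold of the base, and *RPN13* were called higher in 3, and *RPN14* in 1. The beta genes had the highest median change of the 4 main groups in *cdc8 cdc20* (1.07), *cse4-353* (0.82), *cdc8* (0.58) and *cdc20* cells (0.34), and the lid genes in *rad53-1 cdc8 cdc20* cells. In the last the medians were 0.92 over the alpha genes, 1.05 over the beta genes, 1.00 over the base and 1.11 over the lid. In the single *cdc8 cdc20* culture they were 0.93, 1.07, 0.84 and 0.70 in the same order, with the lid lowest. The lead of the lid with *rad53-1* came from replicate 2 (1.08, beside 0.96 over the beta genes). In replicate 1 the beta genes had the highest median (1.11), with the lid at 1.08. These medians were not tested against each other.

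The changes of *rad53-1 cdc8 cdc20* cells were then set against those of *cdc8 cdc20* cells, as the difference of the changes in the same fit. The lid genes *RPN9* (0.64, SE 0.13), *RPN3* (0.54, SE 0.13) and *RPN8* (0.51, SE 0.15) and the ATPase gene *RPT3* (0.54, SE 0.14) rose more with *rad53-1*, with adjusted p-values of 0.0113 to 0.0375 (limma). *RPN14* went the other way (-0.98, SE 0.18, adjusted p = 0.00752, limma), with changes of -0.39 and -0.68 in *rad53-1 cdc8 cdc20* cells and 0.44 in *cdc8 cdc20* cells. So 4 of 33 genes were called higher and 1 lower, beside 12.9% and 13.6% of all probe sets. The share of members called higher, 12.1%, was near that of all genes, and the share called lower, 3.03%, was below it. *RPN4* differed by 0.97 (SE 0.19, adjusted p = 0.0112, limma).

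These calls between *rad53-1 cdc8 cdc20* and *cdc8 cdc20* cells rest on few cultures. Without *rad53-1 cdc8 cdc20* replicate 1 no gene was called higher, without replicate 2 only 1 was, without either *cdc8* culture 2 were and without either *cse4-353* culture 12 were, while *RPN14* was called lower in each of these fits. *RPN4* lost its call without *rad53-1 cdc8 cdc20* replicate 2 (0.97), in the last 5 arrays (0.25) and with the first 2 arrays as the early window (1.18).

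Set against *cdc20* cells, the rise in *rad53-1 cdc8 cdc20* cells was larger for 28 of 33 genes and smaller for 0, beside 27.5% and 29.7% of all probe sets. *RPT2* differed most (1.55, SE 0.18, adjusted p = 0.000367, limma), with changes of 1.52 and 1.39 in *rad53-1 cdc8 cdc20* cells and -0.10 and -0.08 in *cdc20* cells. The alpha subunit gene *PUP2* differed by 1.39 (SE 0.18), *RPN8* by 1.20 (SE 0.12) and the lid gene *RPN5* by 1.12 (SE 0.15). *RPN4* differed by 1.50 (SE 0.16, adjusted p = 0.000277, limma). *RPN2* (0.14), *RPN10* (0.42), *PRE10* (0.32), *PUP3* (0.05) and *RPN14* (-0.20) did not pass. Without arrays before 54 min, 15 genes were called higher and 1 lower, with a median of 0.37 beside 0.78 with them. Of all 5716 probe sets 1498 were called higher and 1793 lower without those arrays.

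The change in *cdc8* cells was larger than that in *cdc20* cells for 11 genes and smaller for 2, beside 23.1% and 23.4% of all probe sets. *RPT2* (0.88, SE 0.18, adjusted p = 0.00548), the alpha subunit gene *PRE9* (0.78, SE 0.17), *RPN8* (0.64, SE 0.12) and *PUP2* (0.58, SE 0.18) rose more in *cdc8* cells by limma. *RPN2* (-0.43, SE 0.15) and *PRE8* (-0.35, SE 0.11) rose less. Without arrays before 54 min, 3 genes were called higher and 3 lower, beside 1150 and 1401 of all 5716 probe sets. Without a *cdc8* culture 2 were called higher, without a *cdc20* culture 3, and without a *cse4-353* culture 17. Only *RPT2* and *RPN8*, of the 6 named here, kept their call with every culture left out.

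The 33 genes were also compared at the arrest itself, by each transcript's share of the RNA of the arrested cultures. In *rad53-1 cdc8 cdc20* cells 30 of 33 proteasome genes were higher than in *cdc20* cells and 0 were lower, with a median difference of 0.80 on the log2 scale. Of all probe sets 18.6% were called higher and 24.2% lower, with a median of -0.07. *PRE8* had arrest intensities of 11688 and 12677 in *rad53-1 cdc8 cdc20* cells, against 4827 and 5280 in *cdc20* cells, a difference of 1.27 (SE 0.21, adjusted p = 0.00386, limma). *RPN9* had 7492 and 8101 in *rad53-1 cdc8 cdc20* cells, against 3449 and 3081 in *cdc20* cells (1.26, SE 0.17, adjusted p = 0.0019, limma). *RPT2* differed by 1.14 (SE 0.11) and *RPN1* by 1.12 (SE 0.18).

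All 7 alpha genes and all 8 lid genes were higher in *rad53-1 cdc8 cdc20* cells than in *cdc20* cells, as were 6 of 7 beta genes and 8 of 9 base genes. *PUP3* (0.34, adjusted p = 0.0529), *RPN13* (0.13, adjusted p = 0.546) and *RPN14* (-0.23, adjusted p = 0.115) did not pass limma's test. *RPN4* differed by 1.29 (SE 0.16, adjusted p = 0.00129, limma), with 6450 and 8629 in *rad53-1 cdc8 cdc20* cells, against 3110 and 3004 in *cdc20* cells. With 1 culture left out, 17 to 31 genes were called higher, the fewest without *rad53-1 cdc8 cdc20* replicate 2, with 20 of the 33 without *cdc20* replicate 2. The strains differ by both the *cdc8* and the *rad53-1* allele, which cannot be told apart in this comparison.

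The comparison with *cdc8 cdc20* cells, which by their labels differ by *rad53-1* alone, gave fewer calls. The median difference at the arrest was 0.38, beside 0.03 over all probe sets, and 30 of 33 genes had the higher value in *rad53-1 cdc8 cdc20* cells. Of them 5 passed the test as higher, beside 12.6% of all probe sets, and *RPN14* as lower, beside 11.7%. *RPN9* had 7492 and 8101 in *rad53-1 cdc8 cdc20* cells, against 4547 in *cdc8 cdc20* cells (0.78, SE 0.21, adjusted p = 0.0358, limma). *RPN3* (0.72, SE 0.16) and *RPN8* (0.63, SE 0.15), both of the lid, and *PUP1* (0.54, SE 0.14) were also higher.

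*RPN14* had 578 and 522 in *rad53-1 cdc8 cdc20* cells, against 1162 in *cdc8 cdc20* cells (-1.08, SE 0.13, adjusted p = 0.00223, limma), the lowest difference among the members. *RPN4* was higher by 1.14 (SE 0.20, adjusted p = 0.00735, limma), with 6450 and 8629 in *rad53-1 cdc8 cdc20* cells, against 3389 in *cdc8 cdc20* cells. The arrest window begins after the peak of *RPN4*. In a window of 120 to 180 min, chosen after seeing the data, the difference of *RPN4* was 1.91 (SE 0.17). There 1 proteasome gene was called higher and 1 lower, beside 476 and 497 of all 5716 probe sets. In the last 5 arrays the difference of *RPN4* was 0.41 and it did not pass.

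Without either *rad53-1 cdc8 cdc20* culture 0 proteasome genes were called higher than in *cdc8 cdc20* cells, without either *cdc8* culture 1, without either *cdc20* culture 2 and without either *cse4-353* culture 19. *RPN14* was called lower in every such fit.

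**Figure D4:**
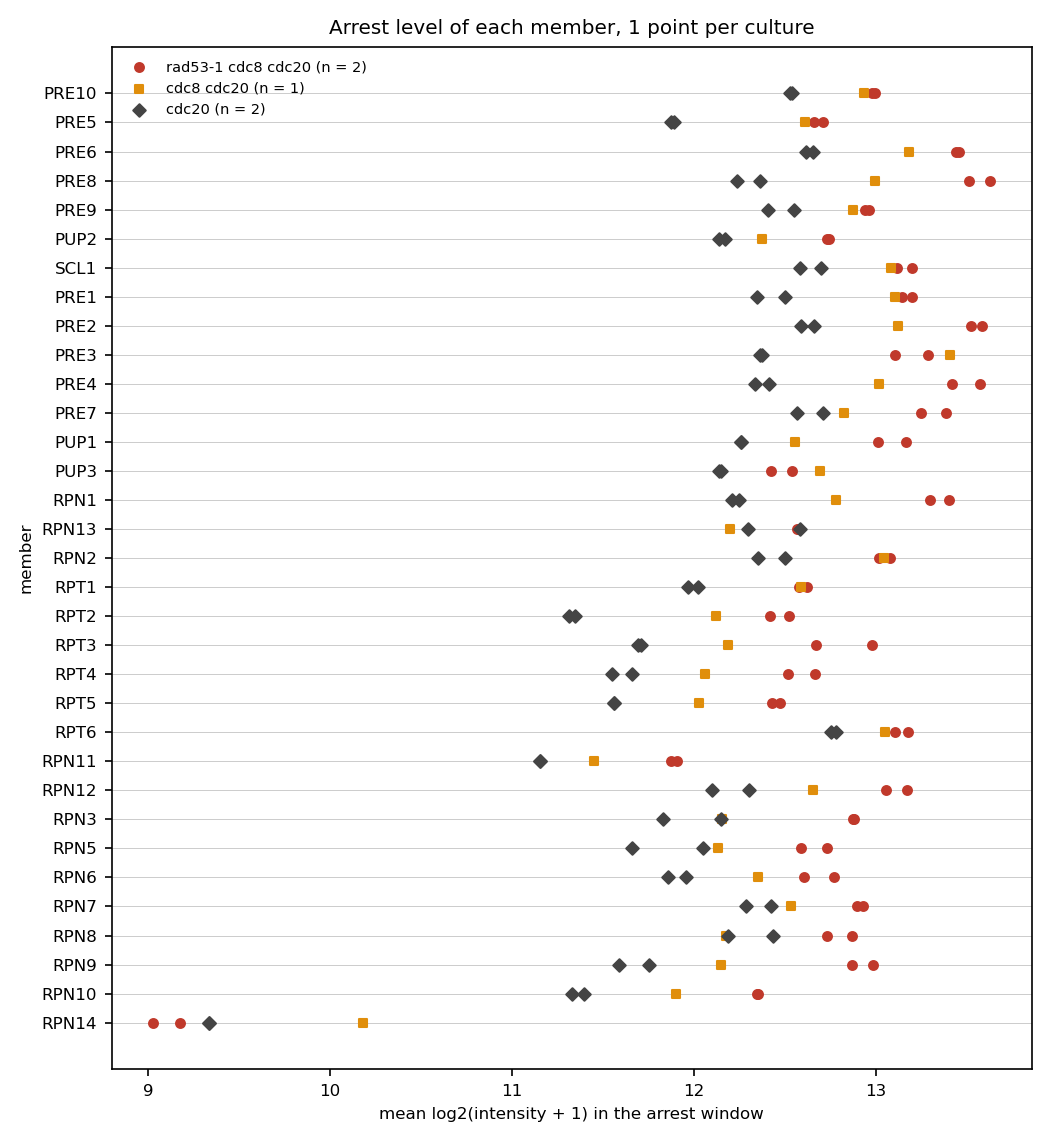
Mean log2(intensity + 1) in the arrest window (horizontal axis) of each of the 33 genes (rows), with 1 point per culture for *rad53-1 cdc8 cdc20* (red circles), *cdc8 cdc20* (orange square) and *cdc20* (dark diamonds). The red circles lie to the right of the dark diamonds for most genes, *RPN14* lies to the left of them, and the orange square lies between for many. Positions of different genes are not comparable as levels.

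At the arrest of *cdc8* cells the proteasome genes differed less from *cdc20* cells, with a median of 0.17 beside -0.16 over all probe sets. Of the 33, 8 were called higher and 1 lower, beside 19.1% and 33% of all probe sets. *RPT1*, an ATPase of the base, had 6795 and 6541 in *cdc8* cells, against 4167 and 4012 in *cdc20* cells (0.71, SE 0.13, adjusted p = 0.00442, limma). *PRE3*, which encodes a catalytic beta subunit, had 8357 and 8660 in *cdc8* cells, against 5269 and 5316 in *cdc20* cells (0.68, SE 0.14, adjusted p = 0.0062, limma). *PRE8* (0.60, SE 0.21) and *PUP3* (0.52, SE 0.12) followed, and *RPN13* was lower (-0.60, SE 0.17, adjusted p = 0.0196, limma). *RPN4* differed by -0.16 (SE 0.16, adjusted p = 0.433, limma).

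The calls of *RPT1* and *PRE3* between *cdc8* and *cdc20* cells were kept with each culture left out. *PRE8* (0.54 to 0.67 with a culture left out), *PUP3* (0.50 to 0.54) and *RPN13* (-0.75 to -0.46) lost theirs in 6, 3 and 3 of 9 such fits. From 120 to 180 min, a window chosen after seeing the data, 21 genes were higher in *cdc8* cells and 0 lower, with a median of 0.55. Of all 5716 probe sets 1129 were called higher and 1775 lower in that window, with a median of -0.16. That window catches *cdc8* cells near their highest median and *cdc20* cells on the way up from their low. Without a *cdc8* or *cdc20* culture the count of higher genes was 2 to 5, and without a *cse4-353* culture 15.

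In *cse4-353* cells the arrest levels lay close to those of *cdc20* cells, with a median difference of 0.09 beside -0.14 over all probe sets. *RPN5* (0.70, SE 0.15, adjusted p = 0.00965, limma) and *RPN14* (0.65, SE 0.11, adjusted p = 0.00302, limma) were higher, and *RPN2* (-0.62, SE 0.17) and *RPT6*, a base ATPase gene (-0.38, SE 0.11), were lower. These 2 and 2 of 33 are set beside 17.7% of all probe sets called higher and 27.1% called lower. *RPN4*, in contrast, was higher by 1.25 (SE 0.16, adjusted p = 0.00106, limma), with 7607 and 6962 in *cse4-353* cells, against 3110 and 3004 in *cdc20* cells. From 120 to 180 min, a window chosen after seeing the data, its difference was 0.24 and did not pass.

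So at the arrest *RPN4* stood more than 1 log2 unit above *cdc20* cells both in *rad53-1 cdc8 cdc20* and in *cse4-353* cells, with 30 and 2 of 33 proteasome genes called higher. This held for the arrest windows: in the last 5 arrays the difference of *rad53-1 cdc8 cdc20* cells from *cdc20* cells was 0.79, and from 180 to 260 min that of *cse4-353* cells was 0.78. These comparisons share their *cdc20* cultures, and a direct test of *rad53-1 cdc8 cdc20* against *cse4-353* cells was not run. Without *cse4-353* replicate 2 there were 10 genes higher and 3 lower than in *cdc20* cells, without replicate 1 there were 3 and 5, without *cdc20* replicate 2 there were 1 and 0, and without *cdc20* replicate 1 there were 2 and 0. *RPN5* lost its call without *cdc20* replicate 2 (0.50), *RPN2* without either *cdc20* culture (-0.69 and -0.55), and *RPT6* in 6 of 9 such fits (-0.46 to -0.30 over all 9).

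Between the checkpoint strains, *cdc8* cells had *PRE8* at 7488 and 7868, against 4892 and 3003 in *cse4-353* cells (1.00, SE 0.21, adjusted p = 0.0102, limma). *RPT1* (0.63, SE 0.13) and the alpha subunit gene *PRE10* (0.33, SE 0.11) were also higher, and *PUP2* was lower (-0.50, SE 0.13, adjusted p = 0.0218, limma). These are 3 higher and 1 lower, beside 17.3% and 19% of all probe sets, with a median of 0.10. *RPN4* was lower in *cdc8* cells by 1.41 on the log2 scale (SE 0.16, adjusted p = 0.000732, limma), with 2563 and 2932 in *cdc8* cells, against 7607 and 6962 in *cse4-353* cells. From 120 to 180 min its difference was -0.29 and did not pass. The call of *PRE10* was lost in 7 of 9 fits with a culture left out (0.25 to 0.42 over all 9), after quantile normalization (0.26), in the last 5 arrays (0.32) and with the replicate block (0.33). Without either *cdc8* culture 0 proteasome genes were called, and without *cse4-353* replicate 1 there were 14 higher and 3 lower. After quantile normalization 2 were higher and 3 lower.

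**Figure D5:**
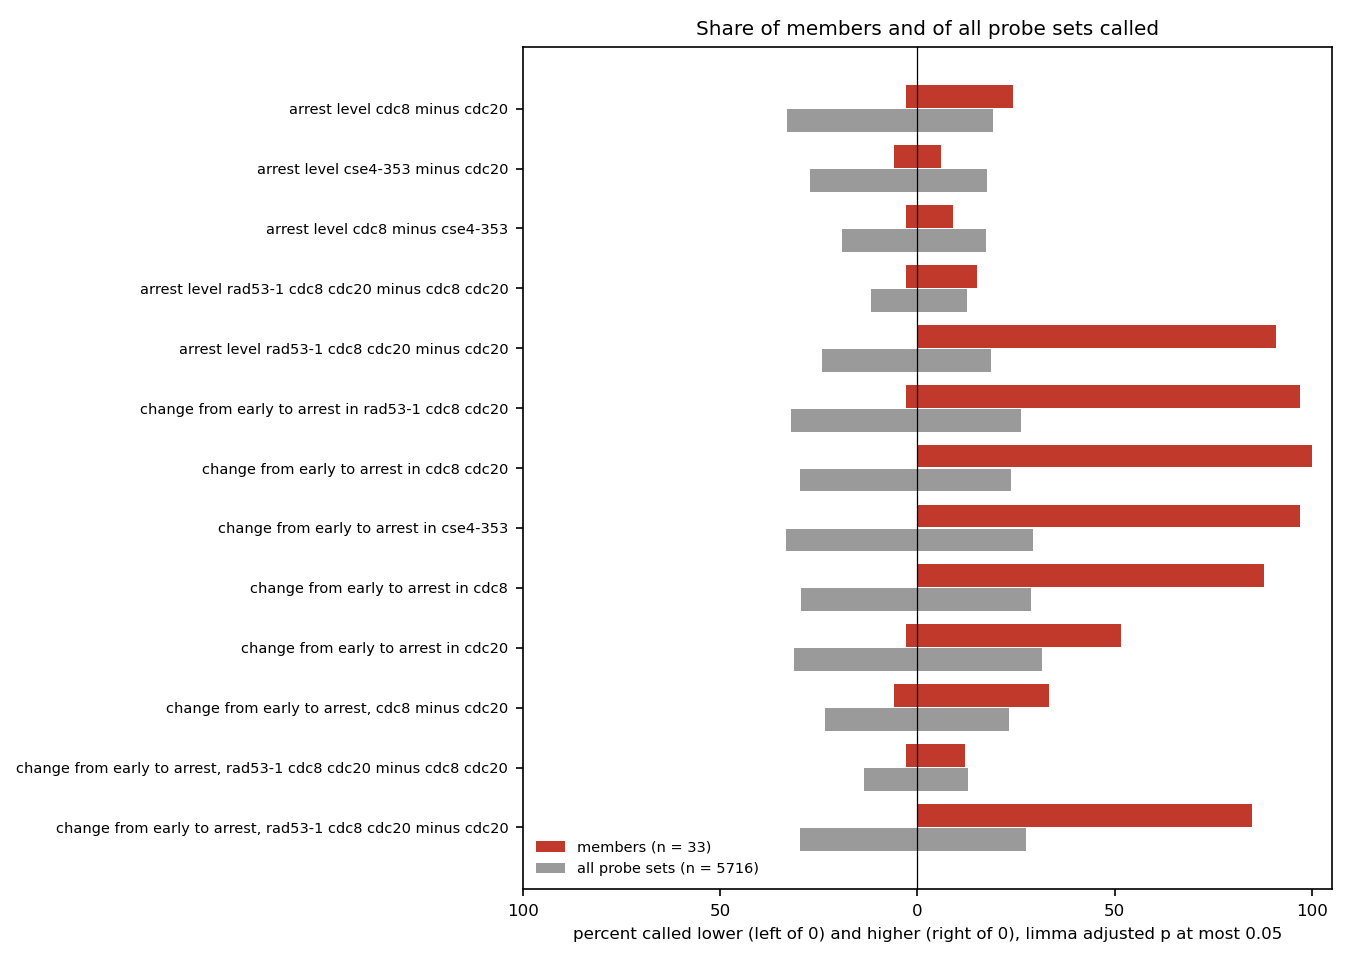
Percent of the 33 proteasome genes (red) and of all 5716 probe sets (grey) called lower (left of 0) or higher (right of 0) in each of 13 comparisons, at an adjusted p of at most 0.05 by limma. The red bars exceed the grey ones to the right in all 5 changes from early to arrest, with 32, 33, 32, 29 and 17 of 33 genes, and in both comparisons of *rad53-1 cdc8 cdc20* with *cdc20* cells. They exceed them by less for *cdc8* against *cdc20* cells, in level (24.2% beside 19.1%) and change (33.3% beside 23.1%). The same holds for the level of *rad53-1 cdc8 cdc20* against *cdc8 cdc20* cells (15.2% beside 12.6%).

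Heat shock genes, which encode chaperones and were set beside the proteasome genes, moved between the same strains. Their median log2 level over 12 genes in the arrest window was 12.30 and 12.51 in *rad53-1 cdc8 cdc20* cells and 12.22 in *cdc8 cdc20* cells. It was 12.41 and 11.74 in *cse4-353* cells and 12.46 and 12.54 in *cdc8* cells, against 10.76 and 10.69 in *cdc20* cells. Against *cdc20* cells 10 of 12 were higher in *rad53-1 cdc8 cdc20*, 11 in *cse4-353* and 8 in *cdc8* cells, with medians of 1.56, 1.46 and 1.76, beside 18.6%, 17.7% and 19.1% of all probe sets. In *cdc8* cells 2 of the 12 were lower (*BTN2*, -0.97, and *FES1*, -0.55). *HSP42*, a small heat shock protein gene, differed by 3.45, 1.91 and 2.57. Between *rad53-1 cdc8 cdc20* and *cdc8 cdc20* cells 2 of 12 were higher (*BTN2*, 1.81, and *FES1*, 0.94). Their part in the differences of the proteasome genes was not tested.

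Among the 4 regulators of *RPN4*, *YAP1* and *PDR1* were higher at the arrest of *rad53-1 cdc8 cdc20* cells than of *cdc20* cells (1.30, SE 0.16, and 1.21, SE 0.19), while *HSF1* (0.08) and *PDR3* (-0.20) did not pass. In *cdc8* cells *PDR3* (1.34), *PDR1* (0.95) and *YAP1* (0.86) were higher than in *cdc20* cells, although *RPN4* was not called. In *cse4-353* cells *YAP1* (0.95) and *PDR1* (0.67) were. None of the 4 passed between *rad53-1 cdc8 cdc20* and *cdc8 cdc20* cells, where *YAP1* differed by 0.36 and *PDR1* by 0.25.

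Genes of the ubiquitin and Cdc48 system, which mark substrates and extract them for degradation, gave 16 of 23 higher and 0 lower at the arrest of *rad53-1 cdc8 cdc20* cells against *cdc20* cells, with a median of 0.80, beside 18.6% and 24.2% of all probe sets. The polyubiquitin gene *UBI4* differed most (2.20, SE 0.16), followed by *DDI1*, a shuttle protein (1.78, SE 0.31), *TMC1* (1.48, SE 0.12) and *UBA1*, the ubiquitin-activating enzyme (1.38, SE 0.25). Against *cdc8 cdc20* cells only *CUZ1* (0.60) and *UFD1* (0.52) were higher and *UBC4*, a ubiquitin-conjugating enzyme, was lower (-0.53). In *cdc8* and *cse4-353* cells 8 and 5 of the 23 were higher than in *cdc20* cells and 3 and 2 lower, beside 19.1% and 17.7% of all probe sets higher and 33% and 27.1% lower.

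Of 16 assembly factors and partners of the proteasome, 6 were higher and 2 lower at the arrest of *rad53-1 cdc8 cdc20* cells than of *cdc20* cells, with a median of 0.27, beside 18.6% and 24.2% of all probe sets. *UBP6*, a deubiquitinase of the proteasome (1.18, SE 0.16), *NAS6*, a chaperone of the base (1.07, SE 0.16), *STS1* (1.02, SE 0.15) and *PBA1*, a chaperone of the alpha ring (1.00, SE 0.17), were higher, and *IRC25* and *FUB1* (both -0.45, SE 0.14) were lower. *HSM3*, which like *RPN14* and *NAS6* encodes a chaperone of the base, differed by -0.06. *RPN14* and *NAS6* thus lay apart, at -0.23 and 1.07.

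Over time the subunit genes moved as a set. Pearson's correlation of each gene with the mean of the other members, over the arrays of a culture, had a median of 0.92 to 0.97 in the 9 cultures, while over all probe sets the median correlation with the members ran from -0.16 to 0.01. Over 0.8 were 32 of 33 genes in both *rad53-1 cdc8 cdc20* cultures, 29 in *cdc8 cdc20*, 31 and 32 in *cse4-353*, 32 in both *cdc8* cultures, and 27 and 25 in *cdc20*. Of all probe sets, 8.7% and 10.3% were over 0.8 in *rad53-1 cdc8 cdc20* and 15.2% in *cdc8 cdc20* cells. The shares were 8.2% and 16.1% in *cse4-353*, 13.7% and 16.8% in *cdc8*, and 4.7% and 6.1% in *cdc20* cells. *PRE1* and the lid gene *RPN7* were nearest the set, with means of 0.98 over the 9 cultures. In *cdc20* cells *PUP2* (0.49 and 0.62), *RPN8* (0.51 and 0.63), *PRE9* (0.55 and 0.64) and *RPN13* (0.55 and 0.71) were looser. *PUP2* had its highest intensity at 40 min there (9288 and 8639) and its lowest at 260 min (3242) and 360 min (2623).

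*RPN14* was the least alike in 8 of 9 cultures. It correlated with the other genes at -0.55 and -0.75 in *rad53-1 cdc8 cdc20* cells and at 0.56 in *cdc8 cdc20* cells. In *rad53-1 cdc8 cdc20* cells it was highest at 36 min (1113) and 18 min (1091) and lowest at 126 min (425) and 198 min (445), while in *cdc8 cdc20* cells it was lowest at 54 min (810) and highest at 288 min (1302). In *cse4-353* cells, where it correlated at 0.59 and 0.91, it stayed between 873 and 1082 in the first culture and between 763 and 1138 in the second. In *cse4-353* replicate 2 the lowest correlation was that of *RPT1* (0.62).

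Ranked by mean correlation over time with the mean log2 profile of the members, over the 9 cultures, the 32 members other than *RPN14* lay between ranks 1 and 119 of 5716, and *RPN14* at 1687. The most alike genes outside the family were *SHP1* (0.961), a cofactor of Cdc48, *MAG1* (0.957), a DNA glycosylase, *YPI1* (0.955), a regulator of protein phosphatase Glc7, and *UFD1* (0.953), a partner of Cdc48. A probe set without a gene symbol followed (0.935), then *PHB2* (0.932), a prohibitin, *CDC48* (0.929), *PIM1* (0.928), a mitochondrial protease, *PNC1* (0.927), a nicotinamidase, and *UBX5* (0.927), a Cdc48 adaptor. The members' own mean includes each member's own profile, which lifts their ranks.

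Periodic transcription was scored with a Lomb-Scargle periodogram of the linear intensities at the first 13 time points. None of the 33 genes was called periodic in *cdc20* cells, at a test period of 147.8 min with p at most 0.5 in both cultures, beside 4.29% of all probe sets. None was called in *rad53-1 cdc8 cdc20* cells at a test period of 94.4 to 147.8 min, beside 18.2%. There the 13 time points ended at 234 min, and the median of the genes was highest at 216 and 234 min. They thus held mainly the rise, and most genes had their best period at 200 min, the longest tested. So this count cannot decide on periods in the tested range. With a linear trend removed 17 genes were called in *rad53-1 cdc8 cdc20* cells, *RPN4* also, beside 51.6% of all probe sets. With p at most 0.1 none was called in either strain, and in *cdc20* cells 1 was called on log2 values and 1 without replicate 2.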

How the data were processed

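Transcripts of 9 cultures were measured on 160 Affymetrix Yeast 2.0 arrays. The deposited values are linear probe set intensities, which the authors made with the affy package (version 1.32.1) by the dChip method from perfect-match probes, normalized on an invariant set without background correction, together with arrays of earlier work and with probes for another yeast masked. Such a joint scaling can shift all levels of a strain, and probe sets respond unequally, so only differences within a probe set were read. The 184 control probe sets were left out, and 218 of the 5716 others had no gene symbol.

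Levels were means of log2(intensity + 1) per window and culture, tested in R 4.3.3 with limma 3.58.1 (lmFit, contrasts.fit, eBayes) in a fit of 9 cultures. Courses and Lomb-Scargle periodograms (52 test periods, 50 to 200 min) used Python 3.11.15, numpy 2.4.6, pandas 2.3.3 and scipy 1.17.1, and figures matplotlib 3.10.9. The limma fit and the periodogram were tested on simulated data. Alternatives were other windows, quantile normalization, a pseudocount of 32, a filter at the 20th percentile of mean log2 intensity, a replicate block, the omission of each culture and, for periodicity, log2 values, all time points, p at most 0.1 and a removed trend.

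The members and lists were chosen with earlier results of these data known. Named were up to 4 called members of the largest change in each direction of a comparison, members that went against the rest, *RPN4*, up to 4 called genes of each related list, and the 10 probe sets most alike in time; other genes were named after their values were seen. The last array of each *cse4-353* culture bears 245 min in its title and 345 min in its source name and was taken as 345 min. A planned search for the promoter element of Rpn4 was not run, since no promoter sequence was used here. Replicate numbers did not pair samples.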

Additional observations from a re-analysis of the deposited data

Results flagged for a closer look

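The results below are changes from the early to the arrest window whose difference between strains passed limma's test of that difference, given on the log2 scale. Between *rad53-1 cdc8 cdc20* and *cdc8 cdc20* cells they were *RPN4* (0.97), *RPN9* (0.64), *RPN3* (0.54), *RPT3* (0.54), *RPN8* (0.51) and *RPN14* (-0.98). Between *rad53-1 cdc8 cdc20* and *cdc20* cells the named genes were *RPT2* (1.55), *RPN4* (1.50), *PUP2* (1.39), *RPN8* (1.20) and *RPN5* (1.12). Between *cdc8* and *cdc20* cells they were *RPT2* (0.88), *PRE9* (0.78), *RPN8* (0.64), *PUP2* (0.58), *PRE8* (-0.35) and *RPN2* (-0.43).

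*RPN14* had changes of -0.39 and -0.68 in *rad53-1 cdc8 cdc20* cells and 0.44 in *cdc8 cdc20* cells. *RPT2*, *PUP2*, *PRE9* and *RPN8* had their highest intensity of the *cdc20* courses at 40 min in both cultures, inside the early window.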

How the results depend on the processing

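Counts are of the 33 proteasome genes called in both directions, with the count as reported in brackets. From 120 to 180 min, a window chosen after seeing the data, the arrest comparisons gave 21 (9) for *cdc8* against *cdc20*, 2 (4) for *cse4-353* against *cdc20*, 19 (4) for *cdc8* against *cse4-353* and 2 (6) for *rad53-1 cdc8 cdc20* against *cdc8 cdc20*. A window of 180 to 260 min in every culture gave 8 (4) for *cdc8* against *cse4-353*. The last 5 arrays gave 1 (6) for the level and 1 (5) for the change of *rad53-1 cdc8 cdc20* against *cdc8 cdc20*. With the first 2 arrays as the early window, the changes gave 14 (33) in *cdc8 cdc20* cells. They gave 1 (29) in *cdc8* and 7 (18) in *cdc20* cells. Of all 5716 probe sets 618 were called higher and 510 lower in *cdc8* cells with that window. The differences of changes gave 0 (13) for *cdc8* against *cdc20* and 1 (5) for *rad53-1 cdc8 cdc20* against *cdc8 cdc20*. Without arrays before 54 min, also chosen after seeing the data, the counts were 28 (18) in *cdc20* cells, 6 (13) for *cdc8* against *cdc20* and 16 (28) for *rad53-1 cdc8 cdc20* against *cdc20*. After quantile normalization the change of *rad53-1 cdc8 cdc20* against *cdc8 cdc20* gave 10 (5), and the level of *cse4-353* against *cdc20* gave 4 higher and 2 lower, beside 2 and 2. On log2 values 1 (0) gene was periodic in *cdc20* cells, and with a linear trend removed 17 (0) were in *rad53-1 cdc8 cdc20* cells. Signs turned for *PUP2*, *cdc8* against *cse4-353* from 120 to 180 min (0.053), for *RPN4*, *cdc8* against *cdc20* in the last 5 arrays (0.041), and for the change of *RPN4* in *cdc8 cdc20* cells with the first 2 arrays as early (-0.19). The cause was not tested.

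With the replicate block, the level of *rad53-1 cdc8 cdc20* against *cdc8 cdc20* gave 3 (6), and no other count moved by over 1.5 times. Same-numbered cultures deviated together with correlations of -0.28 to 0.21, so that replicate numbers share only a number.

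With each culture left out, level counts ran from 2 to 16 for *cdc8* against *cdc20*, 1 to 13 for *cse4-353* against *cdc20*, 0 to 17 for *cdc8* against *cse4-353*, 1 to 20 for *rad53-1 cdc8 cdc20* against *cdc8 cdc20* and 17 to 31 for *rad53-1 cdc8 cdc20* against *cdc20*. Change counts ran from 32 to 33 in *rad53-1 cdc8 cdc20*, 32 to 33 in *cdc8 cdc20*, 30 to 32 in *cse4-353*, 16 to 32 in *cdc8* and 7 to 23 in *cdc20* cells. Differences of changes ran from 2 to 20 for *cdc8* against *cdc20*, 1 to 15 for *rad53-1 cdc8 cdc20* against *cdc8 cdc20* and 24 to 30 for *rad53-1 cdc8 cdc20* against *cdc20*, and periodic calls from 0 to 1 in *cdc20* and 0 to 0 in *rad53-1 cdc8 cdc20*. Of the recomputed counts 172 lay within 1.5 times the count as reported and 58 did not, and of the recomputed values of named genes 1057 kept direction and side of the threshold, 147 kept direction and lost the call, and 3 changed sign. With 2 cultures a strain and 1 for *cdc8 cdc20*, the number of cultures limits which differences can pass. So does the spread, which the fit shares over all strains. Counts of several comparisons that do not involve *cse4-353* cells rose when a *cse4-353* culture was left out. A low count is therefore not a sign of equal levels.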
